A study of Rattus norvegicus with 11 samples.

Results

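The comparison described here asks what serum still changes in E2F1-infected fibroblasts when phosphoinositide 3-kinase (PI3K) is inhibited. It sets 2 arrays of E2F1 cells given serum together with the PI3K inhibitor LY294002 against 2 arrays of E2F1 cells kept in deprivation medium, 4 of the 11 arrays of the series, chosen by the arrays' titles. The cells were REF52, an established line of rat embryo fibroblasts. They were grown in 10% fetal bovine serum, held in 0.25% serum for 48 h and then infected with an adenovirus that expresses E2F1, after which medium was added back. All 4 arrays therefore carry the E2F1 virus and the same earlier deprivation, and they differ in the medium after infection. The labels do not state the serum content of that medium, the LY294002 dose or the time before harvest. From each sample, 6 µg of total RNA was labelled for the Affymetrix rat 230A array, which has no probe set named for E2f1 alone, so the E2F1 transcript itself was not checked. For orientation, 2 arrays of E2F1 cells in serum without inhibitor are given beside the compared groups. The same media in cells with the control (CMV) virus, 2 arrays with serum and LY294002 and 1 deprived array, are given at the end.

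Serum growth factors bind receptor tyrosine kinases, which activate the RAS and ERK cascade, actin signalling to the transcription factor SRF, and PI3K. PI3K makes the membrane lipid that recruits AKT, and AKT in turn keeps FOXO transcription factors out of the nucleus and acts through mTOR on ribosome production and lipid synthesis. E2F1 drives genes of DNA replication and the cell cycle and can also promote cell death, which AKT signalling counteracts in many cells. LY294002 blocks the PI3K catalytic site and also reaches related kinases. In the comparison made here, what serum does and what the inhibitor does by itself cannot be told apart.

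The data were array signals for 15866 probe sets, analysed as log2(signal + 16), so that fold changes of dim genes are understated. Arrays of a group correlated at 0.959 (serum with LY294002) and 0.984 (deprivation). Nothing in the labels tells if replicate arrays stem from independent cultures, and the p-values cover array-to-array spread, possibly only technical. Serum with LY294002 array 2 stood apart. Its 3′ minus 5′ value on the log2 scale, taken from the Gapdh and beta-actin controls as a measure of RNA integrity and labelling, was 0.90, against 0.26 on serum with LY294002 array 1 and 0.56 and 0.51 on the deprived arrays. The deprived arrays lay between the arrays with inhibitor, so the value set array 2 apart and did not separate the compared groups. For these groups, a fit with the value as a covariate called 129 probe sets. In the comparisons given beside them the value went with the medium. It was 0.19 and 0.18 for E2F1 cells in serum alone, below both deprived arrays. In control virus cells it was 0.19 and 0.33 with serum and LY294002, against 0.76 on the deprived array. Of 19 fibroblast markers, 14 had a mean signal over the 4 arrays above the median of all probe sets, among them Col1a2, Fn1, Vim and S100a4, the lowest of whose signals was 10395. Lum, Pdgfra, Dcn, Thy1 and Fap were dim, with signals of at most 113.6. The summed signal of the list was 106580 and 112636 with serum and LY294002, against 120912 and 137207 in deprived cells.

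In E2F1 cells given serum and LY294002, genes that were lower than in deprived E2F1 cells included the Notch ligand Jag1, the growth factors Tgfb3 and Tgfb2, the myosin light chain Myl9 and the calcium pump inhibitor Pln. A smaller number were higher, among them the muscle regulator Myod1 and the prostaglandin enzyme Ptgs1. Of the 15866 probe sets, 67 (0.422%) differed by limma with a Benjamini-Hochberg adjusted p under 0.05. With serum and LY294002, 13 (0.0819%) were higher and 54 (0.34%) were lower. All 67 changed at least 2-fold and had no overlap between the arrays of the groups, which 45.8% of all probe sets also showed. At an unadjusted p under 0.05 there were 2241 probe sets, against 793.3 that a uniform p would give, and the median log2 change over all probe sets was 0.06. The called probe sets with a single gene symbol belonged to 10 genes that were higher and 42 that were lower.

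The number of calls depended on single arrays. Without serum with LY294002 array 2 it was 16, of which 9 were higher, and 8 of the 67 remained, belonging to Ptgs1, Jag1, Il6, Aoc3, Srpx2, Myod1 and, with 2 probe sets, Pln. Without deprived array 1 it was 2, namely Jag1 and Pln. Without deprived array 2 it was 3, with Myod1 beside Jag1 and Pln. In these fits the lone array of a group was assumed to vary like the arrays of the other groups. Arrays of the other groups enter only through the shared spread. Leaving out array 1 or array 2 of CMV cells in serum gave 8 calls, of E2F1 cells in serum 32, and of CMV cells in serum with LY294002 136. All 67 kept their sign in each of these fits, as they had to. Their arrays did not overlap between the compared groups, and arrays of other groups do not enter the means. In a fit of the 4 compared arrays alone none was called, with 1945 at an unadjusted p under 0.05.

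**Figure D1:**
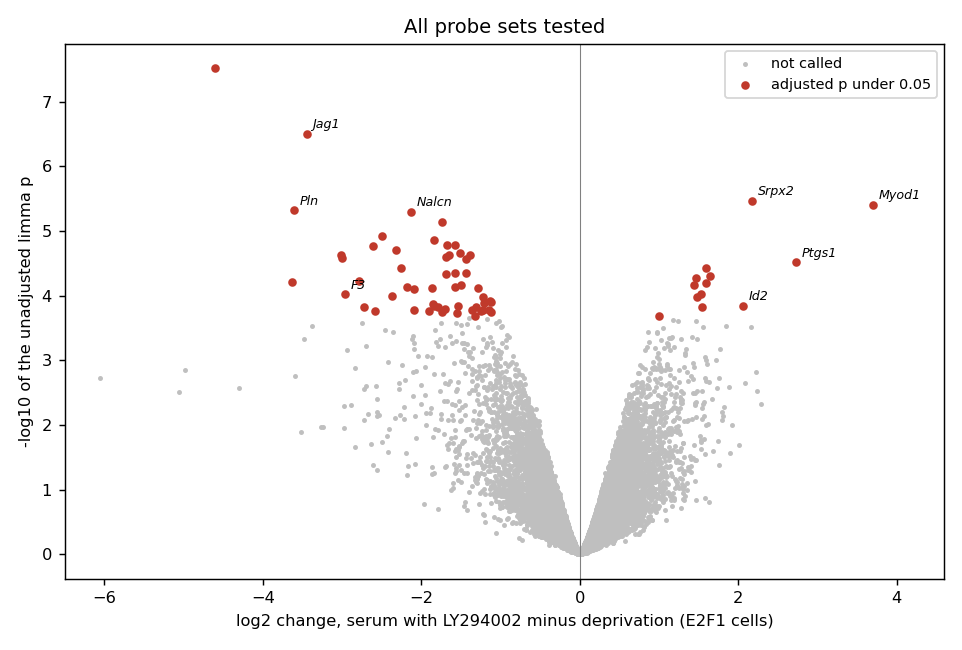
Each point is a probe set, with its log2 change (serum with LY294002 minus deprivation, E2F1 cells) on the horizontal axis and −log10 of the unadjusted limma p on the vertical axis, and the 67 probe sets with adjusted p under 0.05 are in red. More red points lie on the left, where 54 were lower with serum and LY294002, than on the right, where 13 were higher.

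Among transcription regulators, Myod1 and Id2 rose. Myod1 encodes the myogenic factor MyoD, which converts fibroblasts to muscle when forced. It had signals of 2011 and 1366 with serum and LY294002, against 78.4 and 159.8 in deprived cells, and 1802 and 1726 in serum alone. Both arrays with inhibitor lay far above both deprived arrays and around the level of the serum arrays. The log2 change was 3.70 ± 0.33 (SE, n = 2 arrays each; 13.0-fold, limma adjusted p = 0.0134). The log2 difference between serum with LY294002 and serum alone was −0.09, with a 95% interval from −0.85 to 0.67. Id2, an inhibitor of basic helix-loop-helix factors such as MyoD, had 1885 and 1395 with serum and LY294002, against 371.4 and 382.6 in deprived cells. Its log2 change was 2.06 ± 0.30 (adjusted p = 0.0443), and 2.27 with an adjusted p of 0.0671 without serum with LY294002 array 2. A brighter second probe set of Id2 gave 1.55 and missed the threshold (adjusted p = 0.0568). Of the 4 muscle markers checked, only Myod1 was called. Des, the muscle intermediate filament, had 598.8 and 113.0 with serum and LY294002, against 156.4 and 122.7 in deprived cells, so that its arrays disagreed (adjusted p = 0.57).

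Several of the genes that fell encode secreted ligands. Jag1, a ligand of Notch receptors, had 101.5 and 106.5 with serum and LY294002, against 1115 and 1496 in deprived cells, and 166.1 and 186.9 in serum alone. The arrays of each medium were close together and the media were far apart. The log2 change was −3.45 ± 0.22 (10.9-fold, adjusted p = 0.0025), and Jag1 stayed called in 20 of the 21 alternative fits, the exception being the 4 compared arrays alone. Tgfb3, a transforming growth factor beta isoform, had 763.5 and 443.6, against 4305 and 5377 in deprived cells (log2 change −3.01 ± 0.34, adjusted p = 0.0214). Tgfb2, a second isoform, had 274.6 and 285.2, against 1251 and 1408 in deprived cells (−2.18 ± 0.29, adjusted p = 0.0328), and its second probe set gave −2.45 and missed the threshold (adjusted p = 0.0597). The third isoform, Tgfb1, did not pass the test, with 1048 and 1655 against 432.9 and 554.0 in deprived cells (1.40, adjusted p = 0.11). Without serum with LY294002 array 2, Tgfb3 and Tgfb2 missed the threshold, with adjusted p = 0.0569 and 0.0734.

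Bmp4, a bone morphogenetic protein, fell to 424.8 and 410.3 with serum and LY294002, against 1131 and 1323 in deprived cells (log2 change −1.52 ± 0.17, adjusted p = 0.0214). In serum alone it had 284.8 and 329.6, so that its level with inhibitor lay above serum alone by 0.43 on the log2 scale (95% interval 0.03 to 0.82). Gas6, the ligand of the AXL family of receptors and named for its rise on growth arrest, had 711.3 and 738.8, against 1531 and 1650 in deprived cells (−1.12 ± 0.16, adjusted p = 0.0438). Its level with inhibitor differed from serum alone by 0.01, with a 95% interval from −0.36 to 0.38. A dimmer second probe set of Gas6 gave −0.72 against deprivation and was not called (adjusted p = 0.32). Il6, an inflammatory cytokine, had 148.7 and 76.3, against 804.4 and 680.9 in deprived cells (−2.62 ± 0.28, adjusted p = 0.0214). In serum alone Il6 had 269.3 and 268.9, above both arrays with inhibitor, and the difference of serum with LY294002 from serum was −1.21 (95% interval −1.86 to −0.55). Bmp4 and Gas6 missed the threshold without serum with LY294002 array 2 (adjusted p = 0.0569 and 0.0734), and Il6 kept it (0.0433).

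The Il6 promoter window is shown because it holds the cyclic AMP response element TGACGTCA, in capitals, which starts 162 bases before the RefSeq transcription start. It is the minus strand of the rat GRCr8 assembly, chr4:5894526-5894825, from 250 bases before to 50 after the start.
Il6 promoter: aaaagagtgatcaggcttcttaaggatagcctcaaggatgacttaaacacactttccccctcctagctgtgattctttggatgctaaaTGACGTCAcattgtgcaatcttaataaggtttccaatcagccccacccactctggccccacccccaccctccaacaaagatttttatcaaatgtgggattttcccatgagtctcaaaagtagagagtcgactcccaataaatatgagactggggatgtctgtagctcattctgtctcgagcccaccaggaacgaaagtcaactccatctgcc
The window shows where these letters lie and not whether a factor was bound there.

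The genes that fell also included Pln, Myl9, Palld and Cryab. Pln encodes phospholamban, which restrains the calcium pump of the sarcoplasmic reticulum in heart and smooth muscle. It had 89.7 and 36.0 with serum and LY294002, against 900.9 and 877.6 in deprived cells, and 131.0 and 133.9 in serum alone. The log2 change was −3.61 ± 0.33 (12.2-fold, adjusted p = 0.0134), and its second probe set, at 21.5 and 12.4 against 757.2 and 791.1 in deprived cells, gave −4.60 (adjusted p = 0.000484). Myl9, a myosin regulatory light chain of smooth muscle and fibroblasts, had 428.2 and 299.0, against 2689 and 3321 in deprived cells (−3.01 ± 0.34, adjusted p = 0.0214). Palld, the actin-bundling protein palladin, had 725.8 and 627.1, against 2418 and 2565 in deprived cells (−1.86 ± 0.25, adjusted p = 0.0328). Cryab, a small heat shock protein that binds filaments, had 816.1 and 464.1, against 2221 and 2464 in deprived cells (−1.90 ± 0.28, adjusted p = 0.0443). In all of these the arrays with inhibitor lay below both deprived arrays, since a lack of overlap was a condition of the choice. Without serum with LY294002 array 2, the Pln call was kept (adjusted p = 0.0247), while Myl9, Palld and Cryab had adjusted p = 0.0626, 0.0806 and 0.0734.

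Tpm1, a tropomyosin that lies along actin filaments, had 2260 and 1978 with serum and LY294002, against 5477 and 5641 in deprived cells (log2 change −1.39 ± 0.16, adjusted p = 0.0214). Its 5 other probe sets, which can report other isoforms, gave changes from −1.04 to 0.03 and none was called. Without serum with LY294002 array 2 the Tpm1 call was lost (adjusted p = 0.0569). Nexn, the actin-binding protein nexilin, had 211.7 and 169.0, against 685.8 and 708.0 in deprived cells (−1.80, adjusted p = 0.0443). Nexn was singled out after its values were seen, because its promoter window, like that of Tpm1, holds the letters GGAATG of the TEAD motif. TEAD factors work with the serum- and actin-responsive coactivators YAP and TAZ. Both windows are on the minus strand of GRCr8, run from 250 bases before to 50 after the RefSeq start, and show the motif in capitals.
Tpm1 promoter, chr8:76543366-76543665: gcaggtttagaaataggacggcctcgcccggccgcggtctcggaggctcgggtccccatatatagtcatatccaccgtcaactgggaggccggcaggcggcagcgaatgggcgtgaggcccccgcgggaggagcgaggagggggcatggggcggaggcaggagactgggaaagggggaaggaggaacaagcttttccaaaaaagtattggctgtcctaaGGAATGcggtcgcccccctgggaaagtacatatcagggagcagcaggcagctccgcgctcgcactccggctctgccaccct
Nexn promoter, chr2:243878103-243878402: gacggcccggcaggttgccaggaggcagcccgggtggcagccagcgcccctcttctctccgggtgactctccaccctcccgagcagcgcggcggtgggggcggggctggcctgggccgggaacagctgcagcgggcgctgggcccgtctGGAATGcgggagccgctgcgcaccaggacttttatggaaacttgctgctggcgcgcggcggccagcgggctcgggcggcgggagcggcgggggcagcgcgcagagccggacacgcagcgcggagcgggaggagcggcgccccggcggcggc
The motif starts 31 bases before the start in Tpm1 and 101 bases before it in Nexn.

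Promoter windows were found for 8 of the 10 genes that were higher and 32 of the 42 that were lower. Searched on both strands, GGAATG was in 8 of the 32 windows of genes that were lower and 1 of the 8 of genes that were higher, and in 14.2% of all 33469 windows. The CRE letters TGACGTCA were in the windows of Cltb and Il6 (1.83% of all), and the AP-1 letters TGANTCA in those of Cyp3a9 and Nbas (7.33% of all). The E-box CACGTG was in 4 of the 32 windows of genes that were lower (6.42% of all), and the SRF-binding CArG box in that of Eml1 (1.64% of all). In none of the 40 windows were the antioxidant response element TGACNNNGC (12.1% of all), the FOXO letters GTAAACA (3.78%) or the sterol response core TCACNCCAC (1.12%). These are matches of letters, and no test was made of them.

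Surface and membrane proteins made up a further set of genes that fell. F3 encodes tissue factor, which starts blood coagulation. It had 51.8 and 70.8 with serum and LY294002, against 573.1 and 592.3 in deprived cells, and 53.8 and 92.9 in serum alone (log2 change −2.96 ± 0.41, adjusted p = 0.0377). Ptprd, a receptor protein tyrosine phosphatase, had 130.2 and 132.6, against 873.1 and 1048 in deprived cells (−2.72 ± 0.40, adjusted p = 0.0443), and its second probe set gave −2.24 without being called (adjusted p = 0.0994). Nalcn, a sodium leak channel, had 67.9 and 55.7, against 303.5 and 343.7 in deprived cells (−2.13 ± 0.20, adjusted p = 0.0134). For all of these genes the arrays of the media were separate, which the choice of genes required. Without serum with LY294002 array 2 their adjusted p were 0.0709 for F3, 0.0968 for Ptprd and 0.0563 for Nalcn.

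Enzymes were among the changes in both directions. Ptgs1 encodes cyclooxygenase 1, which makes the precursor of prostaglandins. It had 2670 and 1302 with serum and LY294002, against 297.6 and 241.2 in deprived cells, and 1679 and 1415 in serum alone (log2 change 2.73 ± 0.32, 6.63-fold, adjusted p = 0.0227). Its inducible relative Ptgs2 was not called, with 173.4 and 308.0 against 869.7 and 381.5 in deprived cells (−1.26, adjusted p = 0.30). Akr1b8, an aldo-keto reductase that removes reactive aldehydes, had 7968 and 9218, against 3021 and 2475 in deprived cells (1.64 ± 0.21, adjusted p = 0.0295). Gclc, the catalytic subunit of the rate-limiting enzyme of glutathione synthesis, had 2047 and 2449, against 758.0 and 710.2 in deprived cells (1.59 ± 0.19, adjusted p = 0.0259). A second, brighter probe set of Gclc gave 1.02 and was not called (adjusted p = 0.25). In serum alone Akr1b8 and the called Gclc probe set lay between. Their log2 differences of serum with LY294002 from serum were 0.52 (95% interval 0.04 to 1.00) and 0.51 (0.06 to 0.95). The brighter Gclc probe set had 1966 and 1449 in serum alone, around its deprived values of 1671 and 1652. Its difference of serum with LY294002 from serum was 1.00 (95% interval 0.19 to 1.80). Cyp3a9, a cytochrome P450, fell to 100.9 and 46.4, against 536.4 and 459.2 in deprived cells (−2.58 ± 0.39, adjusted p = 0.0443). Without serum with LY294002 array 2 the adjusted p were 0.0166 for Ptgs1, 0.0707 for Akr1b8, 0.0648 for Gclc and 0.0968 for Cyp3a9.

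Srpx2, a secreted sushi-repeat protein that binds the urokinase receptor in human cells, had 737.9 and 733.3 with serum and LY294002, against 163.8 and 138.3 in deprived cells. The arrays within each medium were nearly equal, and the log2 change was 2.17 ± 0.19 (4.51-fold, adjusted p = 0.0134). Plaur, the urokinase receptor itself, had 508.9 and 611.6 against 203.1 and 239.4 in deprived cells, which did not pass the test (1.28, adjusted p = 0.13). The remaining higher genes, Nptx1, Maf, Cpa1 and Thoc3, had signals of at most 54.2 with serum and LY294002 and at most 6.26 in deprived cells, where the added 16 sets the size of the change.

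**Figure D2:**
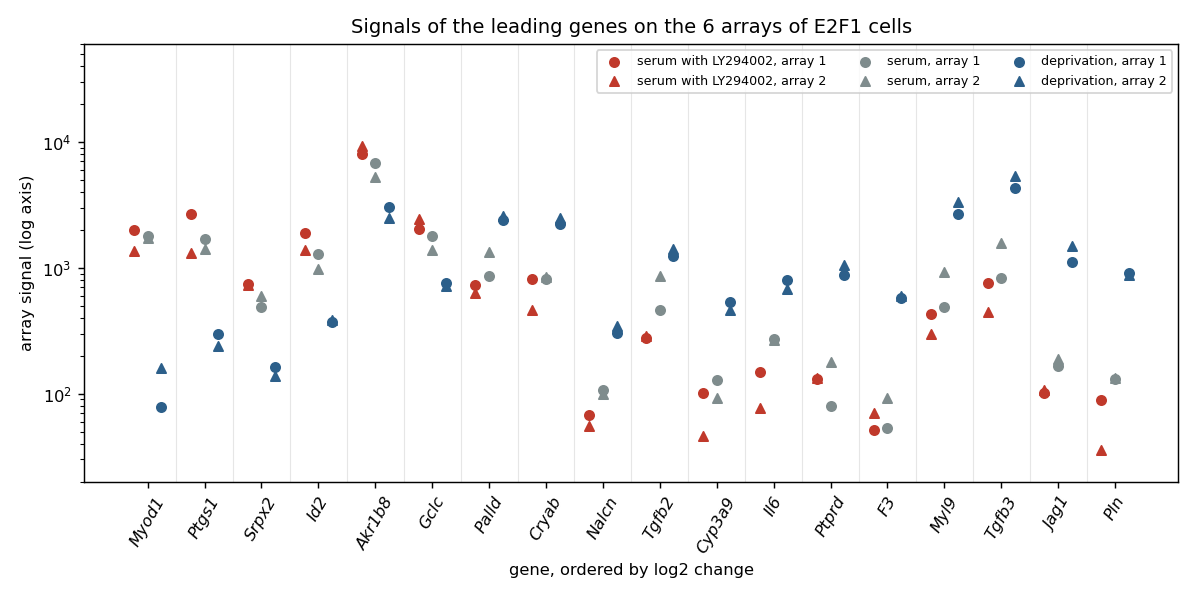
Array signals (log axis) of the 18 leading genes on the 6 arrays of E2F1 cells, with serum and LY294002 in red, serum in grey and deprivation in blue, and array 1 as circles and array 2 as triangles. For each gene both red points lie on the same side of both blue points, because genes were chosen to have no overlap. For Myod1 the red points, at 2011 and 1366, stand beside the grey ones at 1802 and 1726.

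The other genes that fell were outside the rule for named genes and are listed after their values were seen. Those with signals of 32 or more in both media included Nedd9 and Jcad, adaptors of adhesions and cell junctions, the basement membrane collagen Col4a5, the fatty acid ligase Acsl1 (both of its probe sets), the clathrin light chain Cltb, the homeobox gene Shox2, and Omd, Nbas, Atrn, Cnpy4, Eml1, Tspan15, Susd6, Bst1 and Flvcr2. Their log2 changes ran from −1.85 for one Acsl1 probe set to −1.15 for Susd6. Near the low end of the scale with serum and LY294002 were Cd248, Scn2a, Aoc3, Ptpn7, Krtap1-5, Fibin, Nectin4, Plxdc2 and C11h21orf91. Cd248, the stromal marker endosialin, had 5.17 and 4.80 against 92.3 and 85.5 in deprived cells, and Aoc3, an amine oxidase of smooth muscle and fat, had 6.98 and 38.1 against 214.0 and 242.6 in deprived cells.

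Gene lists of known serum and PI3K outputs were then set beside these genes. The list of SRF and actin genes, which serum classically induces, had 2 calls, both lower with serum and LY294002. Of 29 measured members, 2 fell (Myl9 and Tpm1), none rose, 22 had a log2 change below 0, and the median was −0.48, beside 0.06 for all probe sets. The background for this and the later lists is all 15866 probe sets. Of these, 0.34% were called lower and 0.0819% higher, and 6952 had a log2 change below 0 and 8914 above 0. Members differed widely. Acta2, smooth muscle actin, had 4824 and 4393 with serum and LY294002, against 8205 and 11212 in deprived cells (adjusted p = 0.12), whereas Ankrd1, a YAP and SRF target, had 2519 and 2037 against 738.9 and 723.2 in deprived cells (1.61, adjusted p = 0.19). In serum minus deprivation, which shares the deprived arrays, the median of the same list was −0.19.

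Among the genes of TGF-beta signalling, 3 of 16 fell and none rose, beside 0.34% and 0.0819% of all probe sets. Those that fell were the ligands Tgfb3, Tgfb2 and Bmp4. The median log2 change was −0.02, and the other members lay on both sides of 0. Inhba, a subunit of activin, had 1192 and 348.8 with serum and LY294002, against 2064 and 1662 in deprived cells (−1.49, adjusted p = 0.25), and Eln, elastin, had a log2 change of −1.04 (adjusted p = 0.34). Smad6, an inhibitor of BMP signalling, had 481.2 and 374.8, against 264.0 and 165.2 in deprived cells (0.97, adjusted p = 0.15), while its second probe set gave −0.15 (adjusted p = 0.91). Tgfbi had 0.87 (adjusted p = 0.37). Pmepa1 and Ccn2 had 0.07 and −0.19 (adjusted p = 0.90 and 0.70). None of the other members passed the test.

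None of the 37 immediate early genes and none of the 26 genes of ERK output and feedback was called. The immediate early list had a median of −0.06 and the ERK list a median of 0.10. Fos, a subunit of the AP-1 factor, had 119.1 and 392.9 with serum and LY294002, against 1611 and 1064 in deprived cells (−2.50 ± 0.84, adjusted p = 0.25), and its arrays were separate but spread widely within the medium. A second, dimmer Fos probe set gave 0.14 (adjusted p = 0.86). Egr1 had 4733 and 7598, against 7489 and 6331 in deprived cells (−0.20, adjusted p = 0.79). Myc had 62.6 and 321.3, against 73.8 and 82.7 in deprived cells (0.79, adjusted p = 0.75), and its arrays overlapped. Dusp6, an ERK phosphatase, had 1409 and 2679, against 1579 and 1152 in deprived cells (0.52, adjusted p = 0.65). Areg, an EGF receptor ligand, had 48.4 and 16.1 against 5.97 and 3.86 in deprived cells (adjusted p = 0.24). Id1 and Id3, relatives of Id2, had log2 changes of 0.93 and 0.95 (adjusted p = 0.23 and 0.075).

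Outputs of PI3K were also without calls, except for Deptor, an inhibitor of mTOR. Deptor had 233.7 and 146.4 with serum and LY294002, against 633.8 and 799.7 in deprived cells (−1.85 ± 0.27, adjusted p = 0.0443, and 0.0845 without serum with LY294002 array 2). It was the single call among 34 genes of the PI3K and mTOR pathway, whose median was 0.09. Among 31 FOXO targets none was called, 22 were above 0, and the median was 0.20. Cdkn1b, the cyclin-dependent kinase inhibitor p27, had 2693 and 7875, against 3056 and 3343 in deprived cells (0.53, adjusted p = 0.64), and a dimmer second probe set gave −0.76 (adjusted p = 0.53). Txnip, an inhibitor of glucose uptake, had 449.2 and 1482, against 501.4 and 606.8 in deprived cells (0.56, adjusted p = 0.68). On the Cdkn1b probe set given first and on that of Txnip, array 2 with inhibitor lay above and array 1 below the deprived arrays. Irs2 (adjusted p = 0.88), Ccng2 (0.29) and Fbxo32 (0.28) did not pass the test either. Nor did Klf9, at −0.85 (adjusted p = 0.40), and its dimmer probe sets gave −1.59 and −0.25 (adjusted p = 0.0969 and 0.77).

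Genes of sterol and fatty acid synthesis, which AKT and mTOR promote through SREBP factors, had the second lowest median of the lists. None of 31 was called, 27 were below 0, and the median was −0.58, while in serum minus deprivation the median was 0.06 and in serum with LY294002 minus serum it was −0.72. Scd2, a fatty acid desaturase, had 698.0 and 196.3 with serum and LY294002, against 2394 and 2548 in deprived cells (−2.67 ± 0.73, adjusted p = 0.17), and 2452 and 3147 in serum alone. Dimmer Scd2 probe sets gave smaller changes of −0.95 and −0.37 (adjusted p = 0.70 and 0.62). Nsdhl, an enzyme of cholesterol synthesis, had 109.5 and 92.1, against 314.8 and 351.1 in deprived cells (−1.58, adjusted p = 0.23). Idi1, Lss, Acat2, Fdps and Insig1 each had changes between −1.60 and −1.28, with both arrays with inhibitor below both deprived arrays. In 22 of the 31 genes both arrays with inhibitor were below both deprived arrays, as in 19.4% of all probe sets, and the median was −0.48 without serum with LY294002 array 2.

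Cell cycle genes had a single call. Of 22 G1/S regulators 1 fell, Ccnd2, which encodes cyclin D2, with 169.8 and 195.1 against 387.0 and 441.6 in deprived cells (−1.12 ± 0.17, adjusted p = 0.0444, and 0.0707 without serum with LY294002 array 2). Ccnd1, cyclin D1, had 3723 and 1570, against 2316 and 2573 in deprived cells (adjusted p = 0.99). Ccne1, cyclin E1 and a classical E2F target, had 2291 and 3236, against 2954 and 2611 in deprived cells (adjusted p = 0.98), and Cdkn1a, the inhibitor p21, did not pass the test either (0.83). Among 36 DNA replication genes none was called and the median was 0.08. All 30 mitosis genes also missed the test, 27 were above 0 and the median was 0.46. Cdca3 had 2894 and 2172, against 1371 and 1315 in deprived cells (0.89, adjusted p = 0.47), and Cdc20, which starts anaphase, had 797.1 and 426.5, against 338.0 and 315.3 in deprived cells (0.81, adjusted p = 0.43). Other Cdc20 probe sets gave changes from 0.095 to 0.68, and none was called. On serum with LY294002 array 2, 28 of the 30 were lower than on array 1, and the median was 0.76 without array 2 and 0.10 without array 1.

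Cytosolic ribosomal protein genes had the highest median of the lists, 0.62, with 38 of 39 above 0 and none called. Their summed signal was 341846 and 549863 with serum and LY294002, against 267605 and 299126 in deprived cells. It was therefore highest on array 2 with inhibitor, on which 38 of the 39 genes exceeded array 1. The median was 0.23 without array 2, 0.96 without array 1 and 0.25 after quantile normalization. The list of ribosome biogenesis genes had a median of 0.19, with none of 38 called.

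**Figure D3:**
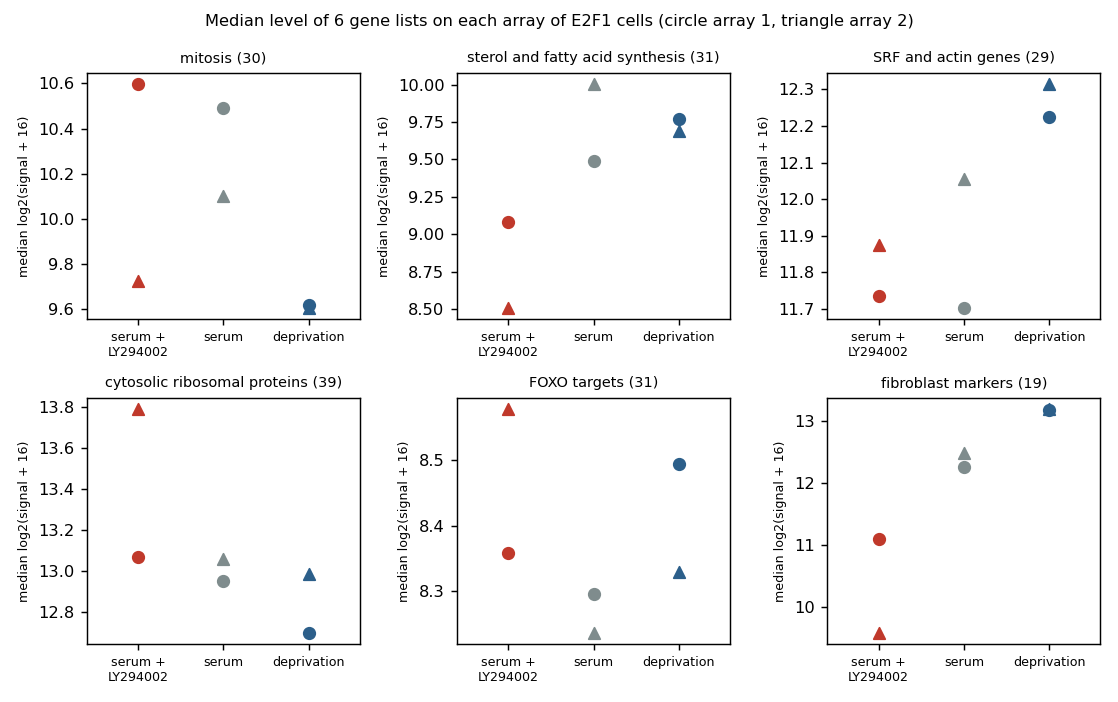
Median log2(signal + 16) over the members of 6 gene lists on each array of E2F1 cells, by medium, with array 1 as circles and array 2 as triangles, and a vertical axis of its own in each panel that does not start at 0. The arrays with serum and LY294002 lie below the deprived arrays for sterol synthesis, SRF and actin genes and fibroblast markers, and above them for mitosis and ribosomal protein genes. Array 1 and array 2 with inhibitor are apart for fibroblast markers (11.10 and 9.59), mitosis (10.60 and 9.72), ribosomal proteins (13.07 and 13.79) and sterol synthesis (9.08 and 8.51).

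No member of the fibroblast and matrix lists passed the test, although some differences were large. Col4a5 and Omd, which were called, are not in these lists. The 19 fibroblast markers had the lowest median of the lists, −0.98, with none called, 11 below 0, and −0.52 without serum with LY294002 array 2. Tnc, the matrix glycoprotein tenascin C, had 129.0 and 50.9 with serum and LY294002, against 1187 and 857.5 in deprived cells (−3.38 ± 0.55, adjusted p = 0.0568). Fbn1, fibrillin 1, had 301.7 and 195.1, against 1554 and 1115 in deprived cells (−2.36, adjusted p = 0.0636). Col3a1, a fibrillar collagen singled out after its values were seen, had 4947 and 593.3, against 10207 and 10969 in deprived cells (−2.61, adjusted p = 0.33). Its arrays with inhibitor were far apart. Col1a2 and Vim had log2 values of 0.27 and 0.30, on the other side of 0, and did not pass the test. Of 42 matrix genes none was called and the median was −0.21. Among 28 growth arrest genes the single call was Gas6, and the median was −0.35.

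Markers of other cell types were mostly dim, and of 29 measured Myod1 was the single call, with a median of 0.08. Their summed signal was 4898 and 3442 with serum and LY294002, against 2495 and 2242 in deprived cells, and Myod1 made up 2011 and 1366 of it with serum and LY294002, against 78.4 and 159.8 in deprived cells. Their part in the results was not tested. The leukocyte marker Ptprc had 3.19 and 5.58 with serum and LY294002, against 9.75 and 12.5 in deprived cells, and the endothelial marker Pecam1 had 8.07 and 10.6, against 16.4 and 5.70 in deprived cells. Kdr, another endothelial marker, had 40.1 and 42.7, against 16.2 and 9.88 in deprived cells, with no overlap between the media (0.99, adjusted p = 0.0978). Of 35 chemokine and NF-kB genes 1 fell, Il6, and the median was 0.09. A list of 24 measured targets of NRF2, the regulator of antioxidant genes, was picked after values were seen. It had 1 call, Akr1b8, a median of 0.29, and 20 members above 0, and the Gclc probe set in this list was the one not called. On serum with LY294002 array 2, 18 of the 24 exceeded array 1. The list's median log2(signal + 16) was 9.78 and 10.58 with inhibitor, against 10.19 and 9.68 in deprived cells, so that array 1 lay between the deprived arrays. Nqo1, a quinone reductase, had 8753 and 12771, against 5142 and 3920 in deprived cells (1.23, adjusted p = 0.17). In serum alone it had 4688 and 4177, within the range of the deprived arrays.

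The remaining lists had no call. Their medians were 0.15 for 30 proteasome genes, 0.09 for 27 pro-apoptotic genes, 0.07 for 19 anti-apoptotic genes and for 36 ATF4 and amino acid genes, −0.02 for 31 glycolysis and hypoxia genes, −0.12 for 16 clock genes, −0.19 for 34 lysosome genes, −0.22 for 34 interferon response genes and −0.30 for 14 p53 targets. Bcl2l1, which encodes the survival protein BCL-XL, had 567.5 and 372.5 with serum and LY294002, against 1005 and 939.1 in deprived cells (−1.05, adjusted p = 0.10). Dimmer Bcl2l1 probe sets disagreed in sign, at 0.28 and −0.52 (adjusted p = 0.59 and 0.61). Bcl2l11, the pro-apoptotic BIM and a FOXO target, had 517.9 and 786.3, against 454.9 and 405.0 in deprived cells (0.56, adjusted p = 0.32), and Mcl1 had an adjusted p of 0.76. Dimmer Bcl2l11 probe sets gave 0.03 and 0.39 (adjusted p = 0.98 and 0.44). Closest to the threshold in these lists were Gdf15, a stress cytokine, at −1.64 (adjusted p = 0.0686), the stress factor Atf5 at −0.89 (0.069), and the glycolytic enzyme Pfkp at 0.99 (0.0809).

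**Figure D4:**
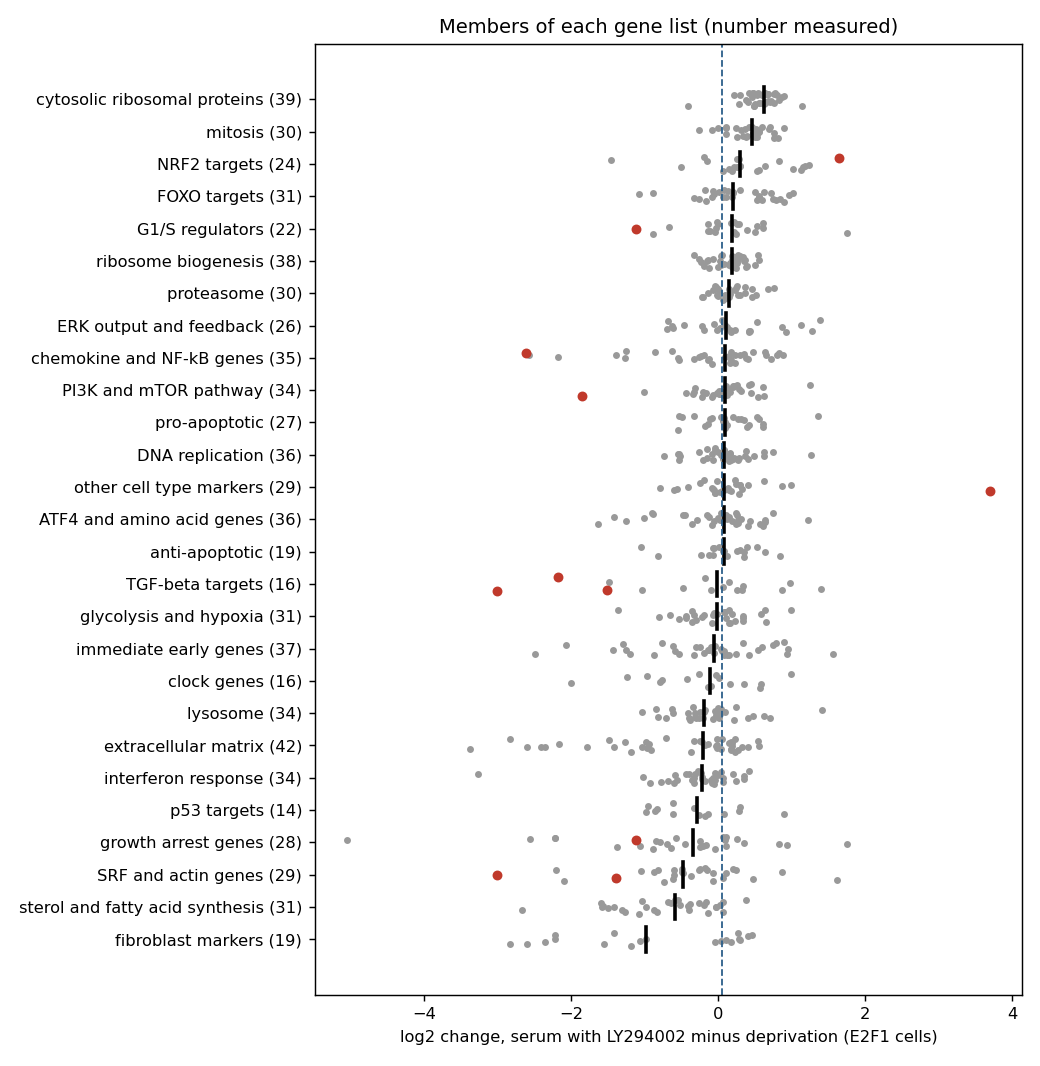
Each point is a gene of the list named on the left, with the number measured in brackets and its log2 change (serum with LY294002 minus deprivation, E2F1 cells) on the horizontal axis. Red points have an adjusted p under 0.05, black bars are list medians, from 0.62 for cytosolic ribosomal proteins to −0.98 for fibroblast markers, and the dashed line is the median of all probe sets, 0.06.

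Serum alone was called against deprivation in 37 probe sets (0.233% of those tested, 13 higher and 24 lower), a comparison that shares the deprived arrays. The 3′ minus 5′ value separated these media, and with it as a covariate 2 of the 37 were kept. Serum with LY294002 against serum, which shares the arrays with inhibitor, had none, with 1769 at an unadjusted p under 0.05 and a smallest adjusted p of 0.1255. It had 325 calls without serum with LY294002 array 1 and 0 without array 2. For Jag1 it was −0.68 (95% interval −1.19 to −0.17), for Tgfb2 −1.13 (−1.80 to −0.46), for Myl9 −0.88 (−1.68 to −0.09), for Nalcn −0.62 (−1.08 to −0.17) and for Tpm1 −0.56 (−0.92 to −0.20), intervals that lie below 0 although no gene passed the test across all probe sets. For F3 it was −0.18 (−1.13 to 0.76), for Ptgs1 0.27 (−0.47 to 1.01) and for Ptprd 0.11 (−0.82 to 1.04), intervals that each include 0 and reach beyond 2-fold in 1 direction. These intervals are not adjusted for the number of genes.

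Cells with the control virus were given the same media. Their arrays enter the E2F1 comparison through the shared spread but not through its means. There 23 probe sets (0.145%) were called, 6 higher (0.0378%) and 17 lower (0.107%), with 1 deprived array. The 3′ minus 5′ value separated the media in these cells, and with it as a covariate 2 of the 23 were kept. Of the 13 probe sets higher in E2F1 cells, 9 had the same sign in control virus cells and 1, Myod1, was called, where 46.4% of all probe sets were above 0. Of the 54 lower in E2F1 cells, 51 had the same sign and 11 were called, where 53.6% of all probe sets were below 0. Myod1 had 1637 and 2342 with serum and LY294002, against 55.8 on the deprived array (4.78, adjusted p = 0.0138). Jag1 had 294.4 and 259.1, against 1974 on the deprived array (−2.77, adjusted p = 0.0151), Bmp4 had 643.4 and 689.3, against 2671 (−1.98, adjusted p = 0.0182), and Gas6 had 703.8 and 633.2, against 2467 (−1.86, adjusted p = 0.0182).

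For other genes the control virus value did not pass the test. Tgfb3 had 3613 and 3587 with serum and LY294002 there, against 6256 on the deprived array (−0.79, adjusted p = 0.50), F3 had 234.5 and 531.6, against 639.3 (−0.82, adjusted p = 0.56), and Id2 had 814.5 and 1186, against 704.1 (0.47, adjusted p = 0.67). The test of the difference between the viruses called none of the 15866 probe sets by limma, with 1064 at an unadjusted p under 0.05 and a smallest adjusted p of 0.0796. No gene was therefore shown to respond differently with E2F1.

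**Figure D5:**
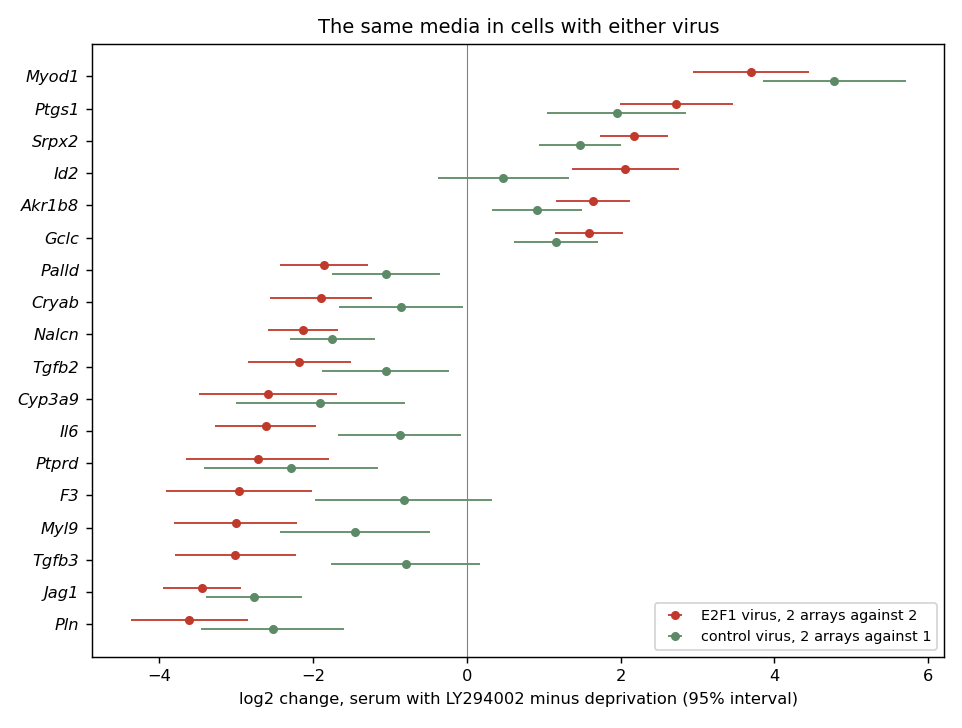
Log2 change of the 18 leading genes, serum with LY294002 minus deprivation, with 95% intervals, in cells with the E2F1 virus (red) and the control virus (green). The genes were chosen by the red values; the green points lie on the same side of 0 for all 18, from 4.78 for Myod1 to −2.77 for Jag1.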

How the data were processed

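The authors deposited 1 table of array signals (intensity on a linear scale, with no detection calls) for 11 Affymetrix arrays. MAS5 and RMA are named in the submitters' processing notes, with no role or version. The trimmed mean of every array was near 500, so the deposited signal had been scaled. Of 15923 probe sets, 57 controls were left out. Gene symbols came from GEO's platform annotation: 12783 probe sets had 1 symbol, 312 several and 2771 none, and 12748 of the single symbols were found in the RefSeq table.

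Signals were taken as log2(signal + 16) and fitted in limma 3.58.1 (R 4.3.3) with 1 mean for each of the 6 groups of virus and medium over all 11 arrays, lmFit and eBayes. P-values were adjusted by Benjamini-Hochberg over 15866 probe sets, with a threshold of 0.05. The script was tested on simulated data. The number of arrays limits the precision.

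The members, lists and named genes were chosen with earlier results of these data known. Named were up to 12 called genes in each direction with a single symbol, arrays that did not overlap and group means of at least 32, up to 4 called members in each direction or else the 2 with the smallest p of each of 26 lists, up to 6 called in each direction for the difference between the viruses (there were none), and 15 genes named in advance, of which some are not reported here. A list gene with several probe sets was represented by the one brightest over all arrays. An NRF2 list was added after values were seen. Promoter windows came from RefSeq (GRCr8).

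Alternatives were quantile normalization, median centring, offsets of 1 and 64, leaving out the dimmest 30%, eBayes with trend and robust, the replicate number as a block, fits of the compared groups or the 6 E2F1 arrays alone, the 3′ minus 5′ value of the control probe sets as covariate, and leaving out each array.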

Additional observations from a re-analysis of the deposited data

How the results depend on the processing

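Serum with LY294002 against deprivation in E2F1 cells gave 67 called probe sets. It gave 29 with an offset of 1, 108 with an offset of 64, 125 without the dimmest 30%, 115 with trend and robust eBayes, 0 from the compared groups alone, 21 from the 6 E2F1 arrays and 129 with the 3′ to 5′ covariate. Leaving out single arrays gave 2 to 136. The share of calls that were higher was 19.4%, 31.0% with an offset of 1 and with the covariate, 9.52% from the 6 E2F1 arrays and 56.25% without serum with LY294002 array 2. Every call kept its sign in all these fits in which its probe set was tested, 52 of 52 without the dimmest 30% and 67 of 67 in the others. Except with the covariate, this was fixed in advance, because the arrays of the called probe sets did not overlap between the groups.

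Serum against deprivation gave 37 calls. It gave 97 after quantile normalization, 91 after median centring, 16 and 126 with offsets of 1 and 64, 133 without the dimmest 30%, 72 with trend and robust eBayes, 0 from the compared groups alone, 0 from the 6 E2F1 arrays and 3 with the covariate; leaving out single arrays gave 0 to 408. Serum with LY294002 against serum gave 0 calls, and 0 to 325 when single arrays were left out, with 325 without serum with LY294002 array 1. The difference between the viruses gave 0 calls in every fit run. Control virus cells gave 23 calls, and 40, 38, 12, 42, 42 and 55 under the first 6 of these settings in the same order, 0 from the compared groups alone and 5 with the covariate, with 0 to 153 when single arrays were left out. The causes were not tested.

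Same-numbered deviations correlated above 0.1 in 1 of 10 pairs of groups, with values from −0.02 to 0.30. That pair was E2F1 and control virus cells in serum with LY294002. In the other pairs of groups the replicate numbers did not pair the arrays. With the replicate number as a block, 41 probe sets were called for serum with LY294002 against deprivation (35 of the 67 kept), 6 for serum against deprivation and 10 in control virus cells.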

Other observations

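The 2 arrays with serum and LY294002 differed from each other in a way that both viruses shared in part. Over all probe sets, same-numbered deviations of E2F1 and control virus cells in this medium correlated at 0.30, and in the other 9 pairs of groups the correlation was at most 0.07. Of 39 cytosolic ribosomal protein genes, 38 were higher on array 2 than on array 1 in E2F1 cells and 37 in control virus cells. Of 30 mitosis genes, 28 were lower on array 2 in E2F1 cells and 27 in control virus cells. Of 37 immediate early genes, 28 were higher on array 2 in E2F1 cells and 30 in control virus cells. Some other lists differed between the viruses. Of 30 proteasome genes, 21 were lower on array 2 in E2F1 cells and 7 in control virus cells. For 22 G1/S regulators these numbers were 8 and 16, and for 31 genes of sterol and fatty acid synthesis 19 and 30. The following genes were singled out after their values were seen. Col3a1 had 4947 on array 1 and 593.3 on array 2 in E2F1 cells, and 12638 and 1705 in control virus cells. Scd2 had 698.0 and 196.3 in E2F1 cells, and 4463 and 943.7 in control virus cells. Myc had 62.6 and 321.3 in E2F1 cells, and 65.9 and 444.1 in control virus cells. Rpl12, a ribosomal protein gene, had 8573 and 15634 in E2F1 cells, and 8558 and 16031 in control virus cells. The labels give no batch or day for these arrays.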
